A study of Mus musculus with 6 samples.

Results

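The cornified envelope genes described here are 10 mouse genes: Sprr1a, Sprr1b, Sprr2d, Sprr2f, Sprr3, Ivl, Tgm1, Sfn, Krtap1-5 and Klk1b11. They were chosen by gene name, and 12 of the 41174 non-control probes of the array carry 1 of these names. Sfn has 3 probes and each of the other 9 genes has 1. The set was built around Sprr1a because its probe was higher in Gadd45a than in Flag and G39A in both replicates. The values of the Gadd45a contrasts therefore chose the set, and they are given below as descriptions with no test.

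RNA was measured on 6 one-colour Agilent arrays labelled with Cy3. The cells were mouse embryonic fibroblasts (MEFs), connective tissue cells grown from embryos, at day 8 of reprogramming. Every culture had been infected with viruses for SKO, an abbreviation that the labels do not spell out, and grown afterwards for 6 days in a serum medium with LIF. In addition to SKO, the cultures had received Flag, Gadd45a, or G39A, described in the labels as a negative mutant of Gadd45a. Each group had 2 arrays, numbered replicate 1 and replicate 2. All groups carried SKO, so no array shows MEFs without it, and Flag served as the control. The promoter that drove each factor is not given in the sources used here. Whether the replicates were separate cultures is not stated, so each p-value rests on the spread among arrays, which may be technical. The array's single Gadd45a probe, which begins at base 878 of the transcript, was not brighter where Gadd45a had been added: it read 1017 on Flag, 560 on Gadd45a and 1395 on G39A in replicate 1, and 2309, 1870 and 2147 in replicate 2. The sources used here do not say whether the introduced Gadd45a holds that stretch, so the probe does not check the labels. The group names below are those of the labels.

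The cornified envelope is the tough protein shell that replaces the plasma membrane of a keratinocyte as it dies at the surface of the epidermis. Involucrin and the small proline-rich proteins (SPRRs) are precursors that transglutaminases cross-link to each other and to desmosomal proteins. Most precursor genes lie side by side in the epidermal differentiation complex. Fibroblasts are not known as a site of cornification, whereas Sprr1a is also known as a stress-induced and injury-induced gene outside the skin. The last members of the set are not envelope components: Krtap1-5 encodes a keratin-associated protein of the hair shaft, and Klk1b11 a glandular kallikrein, a secreted serine protease.

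Of the 10 genes, 6 share a chromosome. Windows of 250 bases upstream of the annotated start were taken from RefSeq (build GRCm38.p6), and all 10 genes matched the table. Sprr1a, Sprr1b, Sprr2d, Sprr2f, Sprr3 and Ivl lie on chromosome 3, Sfn on 4, Klk1b11 on 7, Krtap1-5 on 11 and Tgm1 on 14. The windows of the chromosome 3 genes are shown because all hold a TATA box and most an AP-1 match, while the genes themselves ranged from bright to undetected on the arrays. Capitals mark matches to the AP-1 motif TGANTCA and to the TATA box TATAAA, each searched on both strands.
Sprr1a, chr3:92485882-92486131, minus strand: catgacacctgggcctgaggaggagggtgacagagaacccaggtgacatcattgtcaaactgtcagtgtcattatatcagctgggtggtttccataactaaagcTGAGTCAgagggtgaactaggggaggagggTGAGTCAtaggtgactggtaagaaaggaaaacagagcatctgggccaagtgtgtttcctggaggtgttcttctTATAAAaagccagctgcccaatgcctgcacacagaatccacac
Sprr1b, chr3:92438780-92439029, minus strand: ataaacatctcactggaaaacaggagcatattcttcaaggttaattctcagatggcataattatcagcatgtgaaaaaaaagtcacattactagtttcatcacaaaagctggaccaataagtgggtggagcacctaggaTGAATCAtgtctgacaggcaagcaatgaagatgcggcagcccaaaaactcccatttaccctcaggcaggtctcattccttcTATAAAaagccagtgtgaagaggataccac
Sprr2d, chr3:92338890-92339139, plus strand: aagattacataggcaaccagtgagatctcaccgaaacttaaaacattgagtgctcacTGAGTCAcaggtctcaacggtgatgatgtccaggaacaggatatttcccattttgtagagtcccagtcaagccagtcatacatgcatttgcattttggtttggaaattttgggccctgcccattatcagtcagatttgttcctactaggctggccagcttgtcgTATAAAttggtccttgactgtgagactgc
Sprr2f, chr3:92364937-92365186, plus strand: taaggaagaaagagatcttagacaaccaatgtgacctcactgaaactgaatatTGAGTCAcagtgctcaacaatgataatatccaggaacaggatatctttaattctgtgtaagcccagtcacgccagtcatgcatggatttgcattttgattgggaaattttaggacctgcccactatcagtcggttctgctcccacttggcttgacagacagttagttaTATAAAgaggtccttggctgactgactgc
Sprr3, chr3:92458721-92458970, minus strand: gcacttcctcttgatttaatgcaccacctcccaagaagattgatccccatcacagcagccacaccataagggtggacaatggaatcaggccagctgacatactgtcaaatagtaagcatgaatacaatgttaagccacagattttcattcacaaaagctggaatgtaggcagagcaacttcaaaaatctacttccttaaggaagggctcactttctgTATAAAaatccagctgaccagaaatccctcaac
Ivl, chr3:92573736-92573985, minus strand: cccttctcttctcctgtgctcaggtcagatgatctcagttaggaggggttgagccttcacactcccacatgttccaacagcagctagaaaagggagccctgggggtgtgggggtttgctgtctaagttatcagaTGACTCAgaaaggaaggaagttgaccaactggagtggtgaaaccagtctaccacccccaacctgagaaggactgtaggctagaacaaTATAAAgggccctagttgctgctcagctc

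All 6 of these windows held a TATAAA, which began 29 to 43 bases before the start. Over 32851 promoter windows of the same length, 12.4% held at least 1. An AP-1 match stood in 5 of the 6 windows and in 6.75% of all windows. Sprr1a had 2 AP-1 matches, 146 and 116 bases before its start, and 0.338% of all windows had 2 or more. The single match lay 111 bases before the start in Sprr1b, 193 in Sprr2d, 197 in Sprr2f and 116 in Ivl. Sprr3 had no match to these letters in its window, nor had Tgm1 (with 2 annotated starts), Sfn, Krtap1-5 or Klk1b11. Aligned without gaps, the Sprr2d and Sprr2f windows matched at 154 of 246 bases (62.6%), while every other pair of the 10 genes matched at 29.2% to 36.4%. The ETS core GGAA (93.4% of all windows), the KLF core CACCC (52.0%) and the E-box CANNTG (66.2%) are too common to set these windows apart. A match is a description of the letters and was not tested as a site.

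The values below are processed signals, the background-subtracted brightness of a probe on an array, in arbitrary units. A probe counts as well above background where the scanner software marked it so. The lowest signal marked so was 17.1 to 35.1, depending on the array, and dimmer signals are only bounds. Log2 differences were taken after each array's 75th percentile had been subtracted. Of the 12 member probes, 3 were well above background on all 6 arrays (Sprr1a, Klk1b11 and the Sfn probe numbered 3), 8 on some arrays and 1 (Sprr2f) on none. Between arrays, the number well above background fell from 10 on Flag replicate 1, 9 on Gadd45a replicate 1 and 8 on G39A replicate 1 to 8, 5 and 4 on their replicate 2 counterparts. Over all spots, the share went from 62.1% to 62.9% on Flag, from 57.0% to 59.8% on Gadd45a and from 62.9% to 59.6% on G39A. Levels of different probes are not compared, because probes differ in how brightly they bind.

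**Figure D1:**
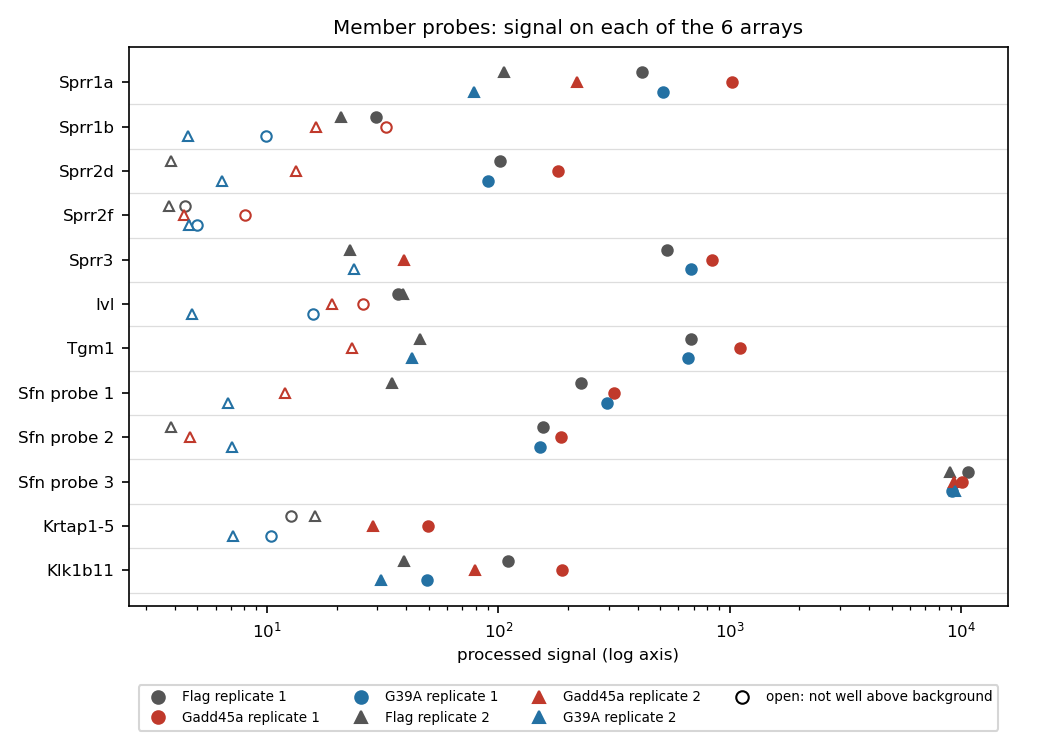
Processed signal (log axis, arbitrary units) of the 12 member probes on the 6 arrays. Colours mark Flag, Gadd45a and G39A, circles replicate 1 and triangles replicate 2, and open symbols were not well above background. Sprr3, Tgm1, Sprr2d and the Sfn probes numbered 1 and 2 have their 3 circles far to the right of their triangles, while the Sfn probe numbered 3 stays between 8932 and 10688.

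Sprr1a encodes a small proline-rich precursor of the envelope. Its probe (chr3:92287955-92288014 in mm9, the build of the array files, minus strand) read 416 on Flag, 1019 on Gadd45a and 516 on G39A in replicate 1. In replicate 2 it read 106 on Flag, 218 on Gadd45a and 78.6 on G39A. The array labelled Gadd45a was thus the brightest of the 3 in each replicate, but Gadd45a replicate 2 was dimmer than every replicate 1 array. After scaling, Gadd45a was 2.37-fold above Flag in replicate 1 and 2.21-fold in replicate 2. Against G39A it was 2.20-fold and 2.89-fold higher. The mean log2 difference from Flag was 1.19, with a standard error (SE) of 1.25 over 2 arrays a group and of 0.156 with the replicate number as a block.

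Sprr3, another SPRR precursor typical of wet-surfaced epithelia such as the oesophagus, had the same order of Gadd45a over the other groups at smaller size. The signals were 536 on Flag, 841 on Gadd45a and 679 on G39A in replicate 1, and 22.9, 39.2 and 23.9 on the same groups in replicate 2. The last of these was not well above background. Gadd45a was 1.52-fold and 1.83-fold above Flag, and 1.38-fold and 1.71-fold above G39A, in replicates 1 and 2. The replicates lay much further apart than the groups did.

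Sprr2d belongs to the SPRR2 subfamily of precursors. It read 102 on Flag, 180 on Gadd45a and 90.3 on G39A in replicate 1, where Gadd45a was 1.71-fold above Flag and 2.22-fold above G39A. In replicate 2 it read 3.87, 13.4 and 6.42 on these groups. None of those 3 signals was well above background, so the order within replicate 2 is not a measured one.

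Sprr1b is the closest relative of Sprr1a in the set and did not share its pattern. It was well above background on the Flag arrays alone, at 29.6 in replicate 1 and 20.9 in replicate 2. Gadd45a read 32.6 and 16.2, and G39A read 9.92 and 4.56. Sprr1b signals on Flag and Gadd45a differed by less than 1.20-fold in either direction within each replicate. Sprr2f, whose upstream window is the nearest to that of Sprr2d, gave 3.78 to 8.04 on the 6 arrays and was not above background on any of them. For Sprr2f these arrays hold only bounds.

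Ivl encodes involucrin, an early scaffold protein of the envelope. It was well above background on the Flag arrays alone, at 36.9 and 38.8 in replicates 1 and 2. It read 26.0 and 19.1 on Gadd45a and 15.9 and 4.75 on G39A. The Flag arrays read the highest in each replicate, but neither Gadd45a signal was well above background, so that order rests on bounds. In replicate 1 the lowest signal marked well above background on the Gadd45a array was 35.1, close to the 36.9 on Flag. Against the background bound, Flag was at least 1.39-fold above Gadd45a as a mean over both replicates. With normexp background correction, which adds an offset and shrinks differences of dim probes, the mean log2 difference of Gadd45a from Flag went from -0.74 to -0.18.

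Tgm1 encodes the keratinocyte transglutaminase that cross-links precursors at the plasma membrane. It read 683 on Flag, 1109 on Gadd45a and 660 on G39A in replicate 1, and 45.7, 23.3 and 42.4 in replicate 2, where the Gadd45a signal was not well above background. The difference between Gadd45a and Flag changed sign between the replicates, from 0.65 to -0.87 on the log2 scale. Tgm1 therefore had no shared direction for Gadd45a.

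Sfn encodes stratifin (14-3-3 sigma), an epithelial adaptor protein tied to p53-dependent cell-cycle arrest and to keratinocyte differentiation. Its 3 probes gave different patterns. The sequences of 2 of them are shown because they target the same RefSeq transcript (NM_018754) but read differently. The first begins at base 824 of the transcript (chr4:133157200-133157259 in mm9, minus strand) and the other at base 1025 (chr4:133156999-133157058).
Sfn probe 1: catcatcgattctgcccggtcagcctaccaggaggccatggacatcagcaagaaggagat
Sfn probe 3: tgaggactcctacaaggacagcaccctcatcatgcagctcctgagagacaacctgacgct

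Sfn probe 1 read 228 on Flag, 317 on Gadd45a and 296 on G39A in replicate 1, and 34.6, 12.0 and 6.76 in replicate 2, with Flag alone well above background there. Sfn probe 2, designed to another Sfn record and with no position in the files, read 155, 187 and 152 in replicate 1 and 3.84, 4.66 and 7.10 in replicate 2. All 3 of its replicate 2 signals were at background. Sfn probe 3 read 10688, 10045 and 9124 in replicate 1 and 8932, 9292 and 9442 in replicate 2. Sfn probes 1 and 2 thus separated the replicates and Sfn probe 3 did not. No probe of another 14-3-3 gene on the array resembled it closely: the best matched at 26 of 54 bases, with Ywhaq. Whether Sfn probe 3 reads another RNA was not tested.

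Krtap1-5 was well above background on the Gadd45a arrays alone, at 49.6 in replicate 1 and 28.8 in replicate 2. It read 12.7 and 16.2 on Flag and 10.4 and 7.12 on G39A. The Gadd45a contrasts chose the set, and this probe entered the test only through Gadd45a, so nothing is read from that order. Against the background bounds, Gadd45a was at least 2.11-fold above Flag and at least 1.90-fold above G39A. These bounds hold for the processed signals only. With normexp background correction the mean log2 difference from Flag fell from 1.42 to 0.39.

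Klk1b11 was above background on every array. It read 111 on Flag, 188 on Gadd45a and 49.0 on G39A in replicate 1, and 38.9, 79.1 and 31.2 in replicate 2. The order Gadd45a, Flag, G39A was the same in both replicates. Gadd45a was 1.65-fold and 2.18-fold above Flag, and 4.28-fold and 2.64-fold above G39A. Kallikreins of this family are near-identical copies, and the Klk1b11 probe matched that of Klk1b27 at 54 of 60 bases. Both are shown, with the differing bases in capitals.
Klk1b11 probe: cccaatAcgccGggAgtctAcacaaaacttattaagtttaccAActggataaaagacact
Klk1b27 probe: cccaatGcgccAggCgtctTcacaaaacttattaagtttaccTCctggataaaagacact
The Klk1b27 probe was well above background on 1 of the 6 arrays, G39A replicate 1, at 23.2. It read 3.51 to 18.3 on the others, so these probes did not give the same pattern. The Klk1b24 probe matched at 45 of 53 bases and read 66.9 on Flag, 121 on Gadd45a and 82.9 on G39A in replicate 1, with the same group highest as for Klk1b11, and was at background in replicate 2. Cross-hybridisation of other kallikrein RNAs to the Klk1b11 probe was not tested.

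**Figure D2:**
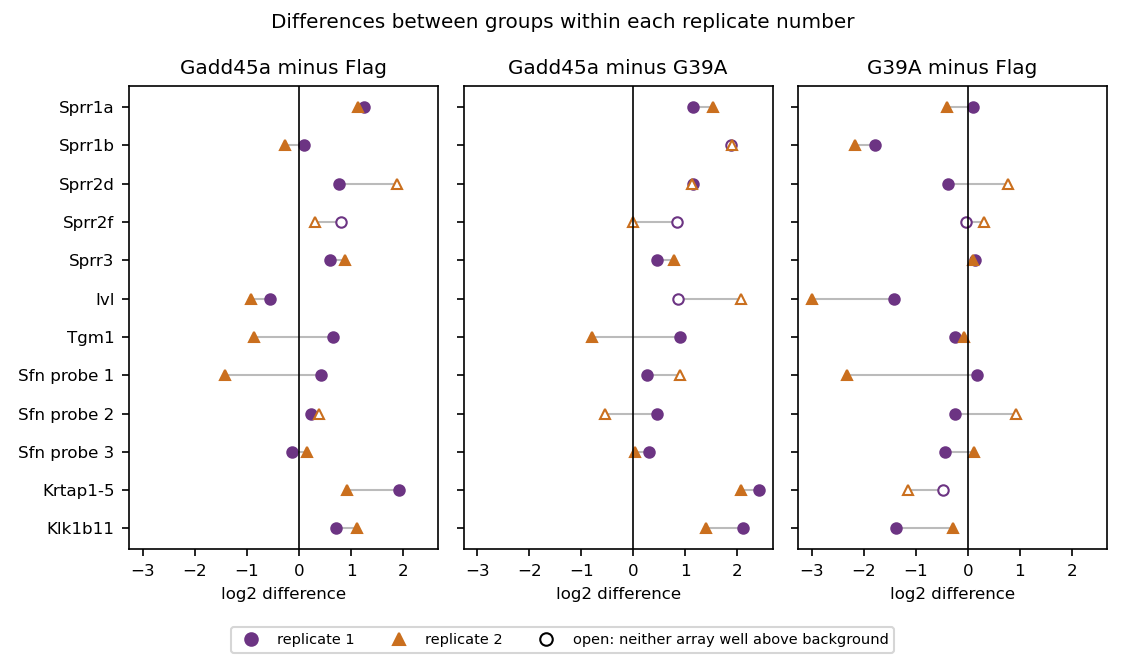
Log2 differences between groups within each replicate number for the 12 member probes, with Gadd45a minus Flag on the left, Gadd45a minus G39A in the middle and G39A minus Flag on the right. Circles are replicate 1, triangles are replicate 2, and open symbols mark pairs in which neither array was well above background. Sprr1a is the single member right of 1 in both replicates in both Gadd45a panels with bright signals, and Sprr1b and Ivl lie left of -1 in both replicates for G39A minus Flag.

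Over the set, 7 of 12 probes were higher in the arrays labelled Gadd45a than in Flag in both replicates (4 of the 9 tested, against 24.6% of all tested probes), and 9 of 12 were higher than in G39A (8 of 9, against 31.6%). Higher than both other groups in both replicates were 5 of 12 probes: Sprr1a, Sprr2d, Sprr3, Krtap1-5 and Klk1b11. Of the 9 members among the 24148 probes tested between groups, 4 had this pattern, against 15.6% of all tested probes. At 2-fold or more in each of these 4 differences, Sprr1a alone remained, against 0.0704% of tested probes (17 probes). The counts include orders that are not measured ones, because neither array of the pair was above background. Against Flag these are Sprr2f in both replicates, and Sprr2d and Sfn probe 2 in replicate 2. Against G39A they are Sprr1b and Ivl in both replicates, and Sprr2d and Sfn probe 1 in replicate 2. For this reason, and since the set was chosen on these differences, nothing is read from those counts. Across all probes, no difference of Gadd45a from Flag or from G39A passed an adjusted p of 0.05 in limma, with the replicate block or without it. At an unadjusted p under 0.05 there were 148 probes (0.613%) for Gadd45a minus Flag and 165 (0.683%) for Gadd45a minus G39A.

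The comparison of G39A with Flag was not used to choose the members, although it shares the Flag arrays with a contrast that was. It asks whether the mutant moved the genes away from the control. No member passed the test (0 of 9, against 0% of all tested probes). Sprr1a differed by -0.14 on the log2 scale (SE 1.25), 0.11 in replicate 1 and -0.39 in replicate 2, with a limma adjusted p of 0.99999, or 0.990 with the replicate block. Sprr3 differed by 0.12 (SE 2.56, or 0.124 with the block), and Tgm1 by -0.16 (SE 2.52, or 0.452). The unblocked standard errors are wide because replicate 1 and replicate 2 of a group lay far apart.

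The members with the widest gap between G39A and Flag were Ivl and Sprr1b. Ivl was lower in G39A by 1.42 in replicate 1 and 2.99 in replicate 2 on the log2 scale, a mean of -2.20 (SE 0.520, limma adjusted p 0.99999). Sprr1b was lower by 1.78 and 2.16, a mean of -1.97 (SE 0.449, limma adjusted p 0.99999). With the replicate block the adjusted p was 0.990 for Ivl and 0.196 for Sprr1b. Neither gene was well above background on a G39A array, so the measured bounds are at least 1.87-fold for Ivl and at least 1.23-fold for Sprr1b. Klk1b11 differed by -0.83 (SE 0.635) and did not pass either. In all, 5 of the 9 tested members were lower in G39A in both replicates (Sprr1b, Ivl, Tgm1, Krtap1-5 and Klk1b11), against 28.3% of tested probes. Sprr1b and Ivl entered the test only through Flag, where they were above background, so the filter favoured a lower G39A. Krtap1-5 entered only through Gadd45a and was at background on the Flag and G39A arrays, so its order there is not a measured one. Nothing is read from this count. Across the array 124 probes (0.514%) had an unadjusted p under 0.05 for this comparison, and 725 (3%) with the block, 478 of them lower in G39A (1.98%).

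The larger difference in these genes was between replicate numbers. Sprr1a, Sprr3, Sprr2d, Tgm1 and Sfn probes 1 and 2 were lower on all 3 replicate 2 arrays than on any replicate 1 array. That held for 6 of the 8 tested member probes and for 29% of all 24691 tested probes. Of these 6, all but Sprr1a entered the test only through replicate 1, where they were bright, so the filter favoured a lower replicate 2. For that reason the adjusted p-values of those 5 are a description and are not read as support. Sprr3, above background on 2 of the 3 replicate 2 arrays, was 21.6-fold lower (log2 difference -4.43, SE 0.102, limma adjusted p 5.3e-05), with -4.51 in Flag, -4.24 in Gadd45a and -4.55 in G39A. Tgm1, also measured on 2 of 3, was 19.8-fold lower (-4.31, SE 0.366, adjusted p 0.000924). Sprr1a was 4.39-fold lower (-2.14, SE 0.128, adjusted p 0.000335), with -1.93 in Flag, -2.04 in Gadd45a and -2.43 in G39A.

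Sprr2d and Sfn probe 2 were at background on all 3 replicate 2 arrays, so their differences are bounds: at least 5.40-fold lower for Sprr2d (adjusted p 0.000454) and at least 7.47-fold lower for Sfn probe 2 (adjusted p 0.000229). Sfn probe 1 was above background on 1 replicate 2 array, Flag, where it was 6.41-fold lower than on Flag replicate 1. Its fitted difference of -4.13 (SE 0.501, adjusted p 0.00273) rests partly on dim signals. Sfn probe 3 differed by 0.06 (SE 0.131, adjusted p 0.707), and its sign turned with the scaling. Fitted without the filter on dim probes, Sprr1a, Sprr3, Sprr2d, Tgm1 and Sfn probes 1 and 2 also passed, with adjusted p from 0.00147 to 0.0150. With normexp background correction, which adds an offset and so shrinks differences of dim probes, they passed at smaller size: -1.65 for Sprr1a, -2.71 for Sprr3, -1.22 for Sprr2d, -2.91 for Tgm1, -1.96 for Sfn probe 1 and -1.55 for Sfn probe 2. Klk1b11 was 1.95-fold lower (-0.97, or -0.47 with normexp, SE 0.226, adjusted p 0.0211), and its replicate groups overlapped. The Klk1b11 call was lost under quantile normalization (adjusted p 0.0595), in the deposited table (0.0589), with no filter on dim probes (0.0698), with no group term (0.201), without either Flag array (0.0688) and without either Gadd45a array (0.0754).

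**Figure D3:**
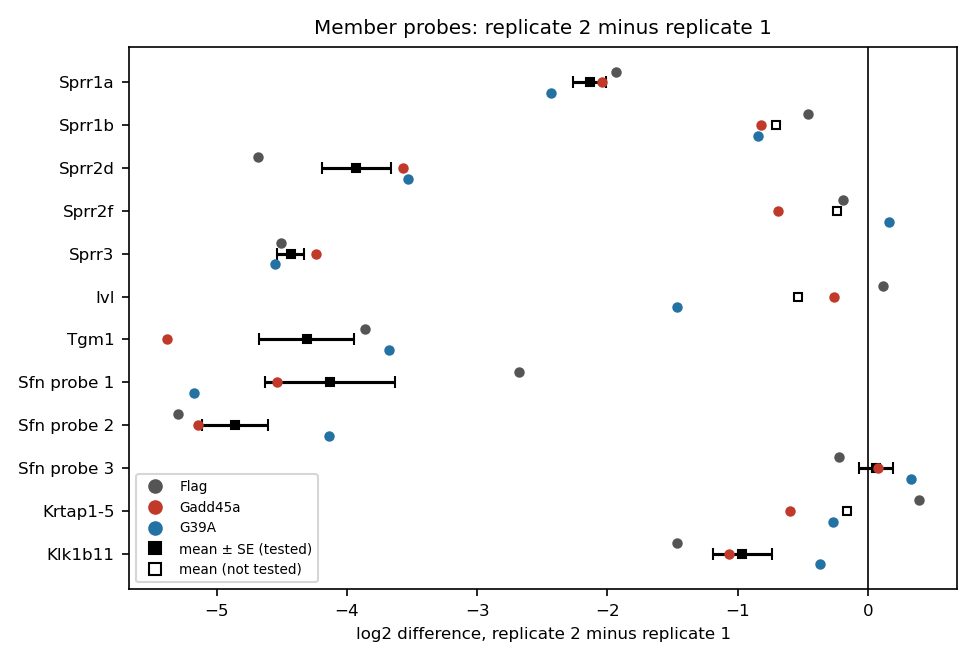
Log2 difference of replicate 2 from replicate 1 for the 12 member probes. Coloured points are the difference within Flag, Gadd45a and G39A, filled squares with bars are the limma mean ± SE of the tested probes, and open squares are means of probes that were not tested. Sprr2d, Sprr3, Tgm1 and Sfn probes 1 and 2 lie near -4 or below, Sprr1a near -2, and the Sfn probe numbered 3 on 0.

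In all, 8 of the 12 member probes could be tested between replicate numbers. Of these, 7 were called lower in replicate 2, against 24.9% of all 24691 tested probes, and 0 were called higher, against 32.1%. The fitted difference was 8-fold or more in 5 of the 7, against 3.77% of tested probes. Dim replicate 2 signals enter these fits. For Sprr2d and Sfn probe 2 the measured bounds are only at least 5.40-fold and at least 7.47-fold, and Sfn probe 1 was above background on 1 replicate 2 array. The median fitted log2 difference of the 8 was -4.03, dim signals included, and that of all tested probes 0.10. Again, 5 of the 8 had entered only through replicate 1. Above background on all 3 replicate 1 arrays and on none of replicate 2 were Sprr2d and Sfn probe 2, 2 of 8, against 2.88% of tested probes. The counts are therefore a description and nothing is read from them. Sprr1a, Klk1b11 and Sfn probe 3 are the members measured above background on all 6 arrays. Sprr1b, Sprr2f, Ivl and Krtap1-5 were too dim to be tested. Of all tested probes 57% were called in 1 direction or the other.

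Replicate number and slide cannot be told apart on one side of this comparison. The 3 replicate 2 arrays shared a slide, while Flag and Gadd45a of replicate 1 shared another and G39A of replicate 1 had a slide of its own. The cells differed in marker genes as well. The summed signal of 10 keratinocyte markers was 85873 to 104889 in replicate 1 and 11317 to 12284 in replicate 2, and most of it came from Itgb4 and Perp. Of the defining keratins, Krt14 read 339 to 447 in replicate 1 and 34.2 to 74.1 in replicate 2, Krt5 read 19.8 to 54.1 over the 6 arrays, and desmoglein Dsg3 was not above background on any array. Of the 10 markers, 6 or 7 were above background on each replicate 1 array and 7 or 8 on each replicate 2 array.

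Simple epithelial markers moved the same way. Their summed signal was 5241 to 6035 in replicate 1 and 1743 to 2804 in replicate 2. Of the 8 markers, Cdh1, the epithelial cadherin, read 360 to 482 in replicate 1 and Epcam 559 to 715, and both were at background on every replicate 2 array. Krt18 and Krt19 did not pass the test between replicates, and Cldn4 and Cldn6 were at background on all arrays. The pluripotency factor Pou5f1 read 3851 to 6363 in replicate 1 and was at background in replicate 2. The sum of the 8 pluripotency markers was 4326 to 6832 against 244 to 283.

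The labelled cell type was seen on every array. At least 9 of 10 fibroblast markers were above background, with sums of 364983 to 485107 in replicate 1 and 660554 to 678030 in replicate 2. Some single markers differed far more than the sums. Lum, Pdgfra, Col3a1, Thy1 and Pdgfrb were called higher in replicate 2, by 5.05, 4.78, 3.01, 2.67 and 2.66 on the log2 scale. Dcn, Col1a1 and Col1a2 were called higher by 1.74, 1.31 and 0.33, and Vim and Twist1 were not called. The sum of 9 macrophage markers was 2187 to 2632 in replicate 1 and 5397 to 9129 in replicate 2. Single macrophage markers went both ways. Lyz2, Emr1, Tyrobp, Aif1 and Csf1r were called higher in replicate 2, with log2 differences of 2.84, 2.82, 2.23, 2.01 and 0.81. Emr1 was at background in replicate 1 and entered the test only through replicate 2. Cd68 and Itgam were called lower, with log2 differences of -0.90 and -3.03, and Cd14 was not called. Their defining marker Ptprc was at background throughout. The part of any of these cell types in the envelope gene differences was not tested. In bulk RNA, fewer cells of a type and less RNA per cell cannot be told apart. Within a replicate number, single keratinocyte markers differed in direction. Gadd45a differed from Flag in replicates 1 and 2 by 0.75 and 0.74 on the log2 scale for Krt5 and by 0.70 and 0.68 for Col17a1, the same direction as Sprr1a, by -0.19 and -0.35 for Itgb4, and by 0.35 and -0.67 for Krt14.

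The rest of the envelope programme was read from gene lists. Of 19 tested probes for other cornified envelope precursors, 11 were called lower and 2 higher in replicate 2, with a median of -1.01, against 24.9% lower and 32.1% higher among all tested probes. Only through replicate 1 had 4 of the 19 entered. Of the 14 above background on all 6 arrays, 7 were lower and 2 higher (median -0.48). Repetin (Rptn), a precursor with a calcium-binding domain, read 126 to 144 in replicate 1 and was at background in replicate 2, at least 6.06-fold lower. The brighter probe of envoplakin (Evpl), which anchors the envelope to desmosomes, was 7.10-fold lower and trichohyalin (Tchh) 5.44-fold lower. Sprr2e was 2.97-fold lower, and it was above Flag in Gadd45a by 0.61 and 0.62 on the log2 scale in replicates 1 and 2. The probes of Sprr2a1 disagreed: one was at least 3.76-fold lower, and the other, named after its values were seen, read 41203 to 47559 on the 6 arrays and was called higher by 0.30 (adjusted p 0.0448). Lce1g, a late cornified envelope gene, was the other probe called higher, at 365 to 503 in replicate 1 and 621 to 919 in replicate 2 (log2 difference 0.97, adjusted p 0.00148).

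Of 19 tested probes for desmosome and cornification proteins of keratinocytes, 11 were called lower and 2 higher, with a median of -1.99. Of the 13 above background on all 6 arrays, 6 were lower and 1 higher (median -1.08). Plakophilin 1 (Pkp1), a desmosomal plaque protein, read 4099 to 6258 in replicate 1 and 20.8 to 44.9 in replicate 2, where 1 of the 3 signals was above background. Its fitted difference of -7.27 on the log2 scale rests partly on dim signals. Desmoplakin (Dsp) was lower by 4.91 on the log2 scale, Ly6d 27.3-fold lower and plakoglobin (Jup) 3.99-fold lower. Krtdap was 6.30-fold lower by the probe measured on all 6 arrays and at least 18.6-fold by the other, and dermokine (Dmkn) at least 10.9-fold lower. The 2 probes called higher, named after their values were seen, were Spink5, a protease inhibitor of the epidermis, and Cdsn, corneodesmosin. Spink5 was at background in replicate 1 and read 224 to 389 in replicate 2. Cdsn read 121 to 132 and 154 to 241.

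Regulators of epidermal differentiation went both ways, with 9 of 21 tested probes lower and 9 higher (median -0.18). Of these, 7 entered only through replicate 1 and 2 only through replicate 2, and of the 12 above background on all 6 arrays, 3 were lower and 7 higher (median 0.51). The ETS factor Ehf has 3 probes, all bright in replicate 1. One read 1653 to 1930 there and was at background in replicate 2, at least 80.8-fold lower, and each of the others was above background on 1 replicate 2 array. Ovol2, a repressor that maintains epithelial identity, was 5.01-fold lower with 1 of 3 replicate 2 signals above background, Prdm1 was 4.59-fold lower and Tfap2c at least 4.29-fold lower. These genes therefore did not move as 1 group.

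The families of the single members split as well. All 5 tested probes for transglutaminases other than Tgm1 were lower in replicate 2, with a median of -3.02, and 2 of them entered only through replicate 1. Tgm2, the broadly expressed tissue enzyme, was 8.21-fold lower, the epidermal enzyme Tgm3 at least 6.53-fold lower and F13a1, above background on 1 replicate 2 array, 2.95-fold lower. All 7 tested probes for kallikreins other than Klk1b11 were lower (median -3.37), among them Klk1b9 at least 5.23-fold, Klk1b24 at least 3.99-fold, Klk1b8 at least 3.91-fold, Klk1 at least 2.99-fold, Klk1b4 at least 2.59-fold and Klk1b3 6.25-fold. Of those 7, 6 were at background on all 3 replicate 2 arrays and Klk1b3 was above it on 1, so all entered the test only through replicate 1.

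The 14-3-3 genes other than Sfn changed little, with 3 of 10 tested probes lower, 1 higher and a median of -0.05. Ywhae was lower by 0.67 and Ywhaz lower by 0.60 on the log2 scale, and 1 of the Ywhab probes was higher by 0.40. Of 46 probes for other keratin-associated proteins, 8 could be tested. Krtap13 and Krtap22-2 were lower, at least 1.98-fold and at least 4.05-fold, and Krtap3-1 and Krtap4-6 were higher by 0.70 and 0.60 on the log2 scale. Between groups, no probe of any of these 7 lists was called in any of the 3 comparisons (0% of all tested probes were).

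**Figure D4:**
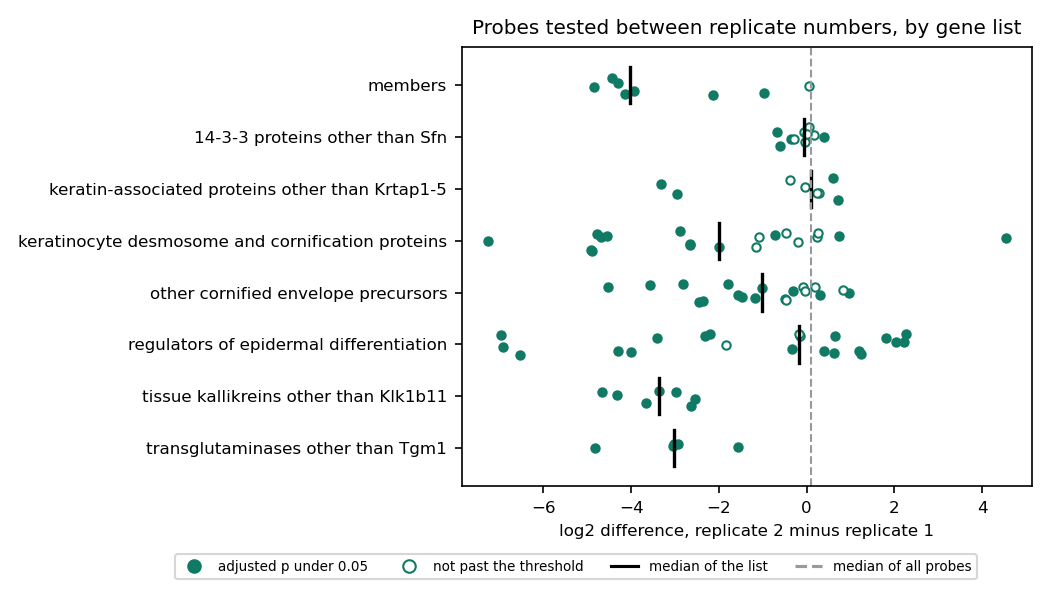
Log2 difference of replicate 2 from replicate 1 for each tested probe, by gene list, with the member probes at the top. Filled points passed an adjusted p of 0.05, black bars are list medians and the dashed line is the median of all tested probes (0.10). The medians are -4.03 for the members, -3.37 for the kallikreins and -3.02 for the transglutaminases. Of those probes 5 of 8, 7 of 7 and 2 of 5 entered only through replicate 1, so the filter favoured a place left of 0.

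In the same order between groups, 6 of 16 tested probes for other envelope precursors and 5 of 14 for desmosome and cornification proteins were higher in Gadd45a than in both other groups in both replicates, against 15.6% of all tested probes. Their median differences of Gadd45a from Flag were 0.31 and 0.30, and that of all tested probes was -0.01. For the regulators 2 of 17 had the pattern, with a median of -0.14. For the transglutaminases it was 2 of 4, for the 14-3-3 genes 2 of 10, and for the keratin-associated proteins 0 of 7. These differences did not pass a test, and the comparisons with Flag and with G39A share the arrays labelled Gadd45a.

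Among probes above background on all 6 arrays, the genes with a pattern most like that of Sprr1a were not envelope genes. That limit left only Klk1b11 and Sfn probe 3 of the other members in the ranking. Sprr3 and the remaining members were not ranked, nor were dim probes of other envelope genes. Over the 6 arrays, and among 19292 probes above background wherever Sprr1a was, the closest was Wbp2, a WW-domain-binding protein (Pearson r 0.998 on log2 signal). Rela, Man1a, Ifnz, Nmnat2 and Prps1 followed, with r from 0.991 to 0.996. Their changes were small: Wbp2 was 0.19 and 0.17 higher in Gadd45a than in Flag on the log2 scale, where Sprr1a was 1.24 and 1.14 higher. Nmnat2 came nearest in size, with 0.90 and 0.49. After the mean of each replicate number had been subtracted, Sbds, Wbp2, Akap8, Cxadr, Rgp1 and Cited2 were the closest, with r from 0.996 to 0.998. Among the members ranked, Klk1b11 had r = 0.81 and Sfn probe 3 r = -0.09 over the 6 arrays. With 6 arrays that share 2 replicate numbers, such values are a description only.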

How the data were processed

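Per the file headers, Agilent Feature Extraction (version 10.7 per the submitters' processing notes) gave the intensity of each spot. It subtracted background and detrended each array, put surrogates in place of dim signals and did not normalize between arrays. The authors' deposited table holds log2 values (column medians of 6.16, r with the own array 0.9989 to 0.9998), follows the direction of the signal, has near-equal sorted values in each column and served as an alternative. Outlier spots were left out; no spot was saturated; 57.0% to 62.9% of spots were well above background. Log2 signals were scaled to each array's 75th percentile and fitted with limma 3.58 in R 4.3 on all 6 arrays (Benjamini-Hochberg, threshold 0.05). Group comparisons took the 24148 probes well above background on both arrays of a group (3 residual degrees of freedom). The replicate comparison took the 24691 above it on all 3 arrays of a replicate number, with group as a term (2 degrees).

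At-least folds set the bright group against the higher, per array, of its measured signal and the lowest one well above background on that array. Same-numbered arrays deviated together (r 0.900 to 0.905 over probes), so the numbers pair the arrays. In simulated data, 33%, 77% and 84.5% of probes changed 2-fold, 4-fold and 8-fold were recovered between replicates, and 0%, 0% and 31.5% between G39A and Flag. Each simulation changed 200 probes and no others, whereas 57% of tested probes were called between replicates in the data. The shares recovered between replicates may therefore not hold for the data. All 10 members were named; of each list, up to 6 genes of smallest p past the threshold, some of which are not reported here; for likeness, the 6 named genes of highest r. The members and lists were chosen with earlier results of these data known. The number of arrays limits the precision.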

Additional observations from a re-analysis of the deposited data

Results flagged for a closer look

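Sfn probe 3 differed between replicate 2 and replicate 1 by -0.22 on the log2 scale in Flag, by 0.076 in Gadd45a and by 0.33 in G39A. The Flag pair thus ran opposite to the other pairs. Each group gives a single difference, so the difference between groups was not tested.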

How the results depend on the processing

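With slide as a random block, 20 probes were called for Gadd45a minus Flag (4 higher, 16 lower) and 3 for G39A minus Flag (0 higher, 3 lower), against 0 in limma without it; under the other alternatives each group comparison gave 0 calls, and the replicate block gave 0 and changed no member's call. Slide as a random block could not be fitted between replicates. That comparison gave 9591 (1 probe per gene, 16034 tested) to 14916 calls, and every tested member kept its side of the threshold except Klk1b11 (adjusted p 0.0102 to 0.201). With slide as a fixed block, the difference of G39A from Flag turned to 0.31 for Tgm1 and 0.043 for Sfn probe 3, and with it as a random block to 0.30 and 0.0096. Leaving out 1 array at a time, that difference ranged from -1.36 to 1.08 for Sprr1a, -2.16 to 2.39 for Sprr3, -2.09 to 1.77 for Tgm1, -3.66 to 1.51 for Sfn probe 1 and -0.32 to 0.0074 for Sfn probe 3, since it then sets unequal replicate numbers against each other. Between replicates Sfn probe 3 gave -0.084 under quantile normalization, -0.022 with the percentile over detected probes, -0.085 in the deposited table, and -0.071 to 0.20 with 1 array left out. The cause of these changes of sign was not tested otherwise. Dim signals limit Sprr1b, Sprr2d, Sprr2f, Ivl and Krtap1-5, whose levels near background are bounds.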

Other observations

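Keratin and desmosome genes outside the set also differed between groups within a replicate number, though none was called. Krt18, a simple epithelial keratin, read 716 on Flag, 1735 on Gadd45a and 898 on G39A in replicate 2, and 843, 1016 and 909 in replicate 1, so its gap was wide in 1 replicate only. Pkp1 was higher in Gadd45a than in Flag by 0.56 and 1.21 on the log2 scale, and higher than in G39A by 0.71 and 1.06, in replicates 1 and 2, though in replicate 2 it was above background on 1 array. F13a1 was higher in Gadd45a than in Flag by 0.12 in replicate 1 and by 1.85 in replicate 2. Trp63, the master regulator of the basal keratinocyte, read 11.8 to 24.5 in replicate 1, where it was at background, and 28.6 to 45.8 in replicate 2, by 1 of its 4 probes. That probe entered the test only through replicate 2, and the other 3 were at background on every array except 1 of them on a single array.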
